A study of Mus musculus with 9 samples.

Results

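The cytotoxic granule genes are 8 genes whose products make up, load or process the killing granules of T cells and natural killer (NK) cells: the granzymes Gzma, Gzmb and Gzmc, the pore-forming protein gene Prf1, the granule membrane protein gene Nkg7, the cathepsins Ctsc and Ctsw, and the proteoglycan gene Srgn. They were taken by gene symbol from the annotation of the array, with the probe set of highest mean where a gene had several. Each of the 8 had 1 probe set, so that step made no choice, and they stand for 8 of 19505 named genes on the array. The members were chosen by symbol with measured values of these arrays known, the signals of shZeb1_C against Scr and shZeb1_D, in which Gzmb and Nkg7 already stood out, so the differences between groups below describe the members and are not independent evidence about them.

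RNA came from C1498 cells, a mouse leukaemia line usually classed as acute myeloid and also described as a tumour of NKT cells, sorted for GFP 2 weeks after overnight infection with a lentivirus that carried GFP and a construct. The construct was hairpin sequence C against Zeb1 on arrays 10, 11 and 12 (shZeb1_C), hairpin sequence D against Zeb1 on arrays 13, 14 and 15 (shZeb1_D), and a negative control on arrays 7, 8 and 9 (Scr), so all 3 groups share the line, the infection, GFP and the sort. The labels name no separate infections, so the spread between arrays may be technical, and the number of arrays limits the precision. Zeb1 is a zinc-finger repressor that binds E-boxes and acts in T cell development and in the loss of epithelial character.

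In a killer lymphocyte, granzymes are serine proteases held in acidic granules and bound to serglycin, the proteoglycan encoded by Srgn. Perforin, the product of Prf1, forms pores through which granzymes reach the cytosol of the target cell, where granzyme B cleaves caspases. Cathepsin C, the product of Ctsc, removes a dipeptide from the granzyme proenzymes and so makes them active, while Nkg7 is needed for efficient release of granules and Ctsw encodes a cathepsin found mainly in T and NK cells. Gzmb and Gzmc lie side by side in a cluster of granzyme and mast cell protease genes on mouse chromosome 14.

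The 250 bases upstream of the RefSeq start (build GRCm38.p6) are shown for the 3 members that were high on the arrays labelled shZeb1_C, followed by Gzma, a granzyme gene with another pattern, and Prf1, which stayed dim. Capitals mark the E-box letters CAGGTG or CAGGTA, the Runx core TGTGGT and the AP-1 site TGANTCA, each sought on both strands, and no marked sites overlap. Sequences run 5′ to 3′ towards the start.
Gzmb (chr14:56262335-56262584, minus strand): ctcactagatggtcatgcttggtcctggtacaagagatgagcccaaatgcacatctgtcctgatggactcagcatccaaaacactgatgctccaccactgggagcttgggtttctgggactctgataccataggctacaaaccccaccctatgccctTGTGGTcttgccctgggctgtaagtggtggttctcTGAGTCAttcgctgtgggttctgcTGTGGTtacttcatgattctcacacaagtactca
Gzmc (chr14:56234658-56234907, minus strand): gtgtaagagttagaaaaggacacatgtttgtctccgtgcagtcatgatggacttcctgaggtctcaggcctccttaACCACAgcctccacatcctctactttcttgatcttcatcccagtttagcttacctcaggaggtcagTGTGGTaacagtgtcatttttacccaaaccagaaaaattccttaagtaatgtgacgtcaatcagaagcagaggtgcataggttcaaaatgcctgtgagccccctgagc
Nkg7 (chr7:43436888-43437137, plus strand): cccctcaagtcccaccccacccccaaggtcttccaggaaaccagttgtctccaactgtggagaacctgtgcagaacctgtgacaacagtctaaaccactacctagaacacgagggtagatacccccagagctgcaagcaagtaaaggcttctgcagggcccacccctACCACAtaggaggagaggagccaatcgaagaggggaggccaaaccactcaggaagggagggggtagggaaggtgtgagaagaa
Gzma (chr13:113100982-113101231, minus strand): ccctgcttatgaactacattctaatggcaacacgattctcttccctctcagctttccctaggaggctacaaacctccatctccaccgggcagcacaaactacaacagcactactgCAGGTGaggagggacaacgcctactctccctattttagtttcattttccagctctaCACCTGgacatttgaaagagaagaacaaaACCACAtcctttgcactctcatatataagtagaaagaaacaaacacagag
Prf1 (chr10:61297586-61297835, plus strand): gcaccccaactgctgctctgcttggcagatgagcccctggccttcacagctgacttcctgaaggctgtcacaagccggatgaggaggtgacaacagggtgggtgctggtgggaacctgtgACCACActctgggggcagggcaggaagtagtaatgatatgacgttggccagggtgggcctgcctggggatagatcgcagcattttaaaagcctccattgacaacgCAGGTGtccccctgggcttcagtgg

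The windows of Gzmb, Gzmc and Nkg7 held neither E-box in these letters, whereas that of Gzma held 2 copies of CAGGTG, at 135 to 130 and 79 to 74 bases before the start, and that of Prf1 held 1, at 25 to 20 bases. Either E-box was present in 25.4% of all 32851 upstream windows of this length. All 5 windows held the Runx core, against 14% of all windows, with 2 copies each for Gzmb and Gzmc. Gzmb alone of the members held the AP-1 letters, at 58 to 52 bases before the start, against 6.75% of all windows. Of the other members, Ctsc held none of the 4 motifs, 1 of the 2 windows of Srgn held 1 Runx core, and no window for Ctsw was used. Aligned end to end, the windows of Gzmb and Gzmc were 50.2% identical, within the range of 42.6% to 52.6% over all pairs of member windows. A match is a description of letters and not of a bound site.

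Expression is given as log2 RMA signal, a background-corrected and normalized array intensity, and a difference of 1 on this scale is a doubling of the signal. Array medians ran from 6.97 to 7.16. As a guide to dim signal, the 95th percentile of 1414 probe sets for olfactory and vomeronasal receptors was taken on each array, and it lay between 7.06 and 7.78. The targeted gene came first as a check of the labels. Zeb1 stood at 10.41, 10.01 and 10.34 on the arrays labelled shZeb1_C and at 9.56, 9.26 and 9.40 in shZeb1_D, against 10.52, 10.29 and 10.56 in Scr. It was 86.9% of Scr with hairpin C (limma adjusted p = 0.895) and 48.3% with hairpin D (limma adjusted p = 0.0263; up to 0.157 with single arrays left out), so the label of hairpin C is not borne out by a fall of its target. After the group means were removed, 57.9% of the remaining variation lay on 1 component, on which Scr 8, shZeb1_C 12, shZeb1_D 14 and shZeb1_D 15 stood on one side and the other 5 arrays on the other. Without these 4 arrays, which leaves 1 array in shZeb1_D, Zeb1 in shZeb1_D minus Scr was -0.98. The values without them are also given for Gzmb, Nkg7, Gzmc and Gzma.

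The cells carried T cell transcripts in every group. Cd3g and Cd3e, signalling chains of the T cell receptor complex, ran from 15.38 to 15.71 and from 13.41 to 15.32 over the 9 arrays. Other T cell markers were below the dim limit on all 9: Thy1 (5.23 to 6.06), Cd5 (6.07 to 6.58), Cd8a (6.03 to 6.97) and Cd8b1 (5.58 to 6.58). Of 14 measured T cell markers 6 were above the dim limit on all arrays, and of 10 measured NK cell markers 3 were. The other lists gave 2 of 11 macrophage and monocyte markers, 1 of 12 neutrophil granule genes, 1 of 12 mast cell and basophil markers and 0 of 7 B cell markers. The mast cell gene was Cpa3, a carboxypeptidase of mast cell granules, at 14.98 to 15.66. Among the macrophage and monocyte markers, Fcgr1 (7.84 to 10.65) and Mrc1 (7.07 to 8.40) were above the limit on all arrays and Ccr2 on some (4.33 to 8.52), while Csf1r, Itgam, Lyz2, Spi1 and Cebpa were below it on all 9. Limma called 0 genes of the T cell, B cell, macrophage and mast cell lists in each comparison. Over all probe sets it called 0.945% in shZeb1_C minus Scr, 0.843% in shZeb1_D minus Scr and 0.848% in shZeb1_C minus shZeb1_D. In lists this short, 0 called is near those shares and is not read as a lack of change. At an unadjusted p under 0.05 limma gave 2, 4 and 5 T cell markers in these comparisons. It gave 0, 2 and 2 for B cells, 2, 3 and 2 for macrophages and 1, 1 and 2 for mast cells. Of the neutrophil granule genes, Prss57 alone was called, higher in shZeb1_D than in Scr by 1.63 (limma adjusted p = 0.0419; up to 0.211 with single arrays left out, where the call was lost in 6 of 9 fits).

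**Figure D1:**
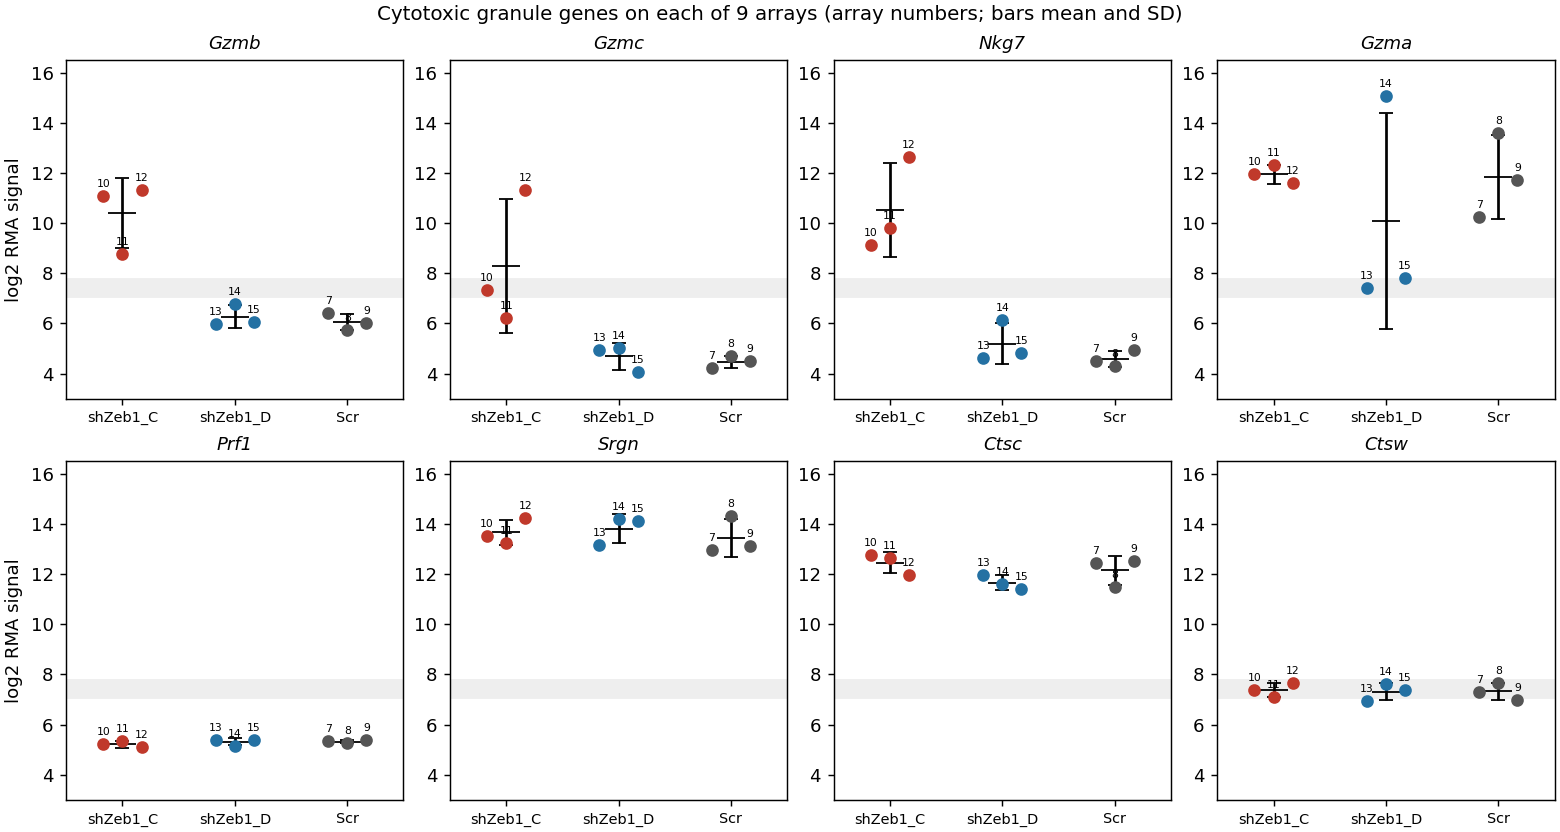
Log2 RMA signal of the 8 granule genes on each array. Columns are shZeb1_C, shZeb1_D and Scr, points are arrays with their numbers, bars are mean and SD (n = 3), and the grey band spans the dim limits of the 9 arrays, 7.06 to 7.78. Gzmb and Nkg7 lie above the band on the 3 shZeb1_C arrays and below it on the other 6; Prf1 lies below it on all 9.

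The arrays labelled shZeb1_C differed from both other groups in Gzmb, Gzmc and Nkg7, while Prf1 stayed dim and Srgn and Ctsc were bright throughout. Gzmb, the granzyme that cleaves after aspartate, stood at 11.09, 8.78 and 11.31 on the arrays labelled shZeb1_C, at 5.97, 6.79 and 6.04 in shZeb1_D and at 6.41, 5.75 and 6.02 in Scr. The lowest shZeb1_C array thus lay above the highest of the other 6, and all 6 were below the dim limit of their array. Because the dim groups give only a bound, the signal was at least 9.59-fold higher in shZeb1_C than in Scr and at least 7.41-fold higher than in shZeb1_D, each taken against the dim limit (6.98 to 16.8 over Scr and 5.39 to 13 over shZeb1_D with single shZeb1_C arrays left out). On the log2 scale of the fit the difference was 4.33 ± 0.59 from Scr (SE, n = 3 arrays each; limma adjusted p = 0.0109) and 4.13 ± 0.59 from shZeb1_D (limma adjusted p = 0.0154), with shZeb1_D minus Scr at 0.21 ± 0.59 (95% interval -1.12 to 1.53). In bulk RNA, more cells with a transcript and more transcript per cell cannot be told apart.

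Nkg7 followed the same order of groups as Gzmb. It stood at 9.11, 9.79 and 12.65 on the arrays labelled shZeb1_C, at 4.63, 6.12 and 4.81 in shZeb1_D and at 4.49, 4.32 and 4.94 in Scr. The 3 shZeb1_C arrays again lay apart from the other 6, which were all below the dim limit, and shZeb1_D 14 was the highest of those 6. The signal was at least 10.4-fold higher in shZeb1_C than in Scr and at least 8.07-fold higher than in shZeb1_D, and without shZeb1_C 12 these bounds were 4.99 and 3.85. The fitted differences were 5.93 ± 0.80 and 5.33 ± 0.80 (SE; limma adjusted p = 0.0109 and 0.0189), and that of shZeb1_D from Scr was 0.60 ± 0.80 (95% interval -1.20 to 2.40). Without the 4 arrays that stood together, shZeb1_C minus Scr was 4.74 for Nkg7 (limma adjusted p = 0.000437) and 3.72 for Gzmb (0.0315). That setting leaves 1 array in shZeb1_D, so only sizes are given for shZeb1_C minus shZeb1_D, 4.82 for Nkg7 and 3.97 for Gzmb.

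Gzmc, a granzyme gene next to Gzmb in the cluster and found in activated mouse killer cells, stood at 7.34, 6.22 and 11.32 on the arrays labelled shZeb1_C, at 4.95, 5.03 and 4.07 in shZeb1_D and at 4.22, 4.70 and 4.49 in Scr. The groups did not overlap, but only shZeb1_C 10 and 12 were above the dim limit, and 12 was far above 10. The difference from Scr was 3.82 ± 1.05 (SE, n = 3 each; limma adjusted p = 0.192) and that from shZeb1_D 3.61 ± 1.05 (limma adjusted p = 0.209), so Gzmc was not called in either. Against the dim limit the signal was at least 2.24-fold higher than in Scr, a bound that array 12 carried: without it the shZeb1_C mean was 6.78, below the limit. Without shZeb1_C 12 the difference from Scr was 2.31 and the adjusted p 0.0387 in limma, with a smaller spread between the arrays left, and without the 4 arrays that stood together it was 2.43 (0.0169).

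Gzma, the granzyme with a trypsin-like preference, was above the dim limit on all 9 arrays and did not follow Gzmb. It stood at 11.94, 12.33 and 11.58 on the arrays labelled shZeb1_C, at 7.40, 15.06 and 7.82 in shZeb1_D and at 10.25, 13.58 and 11.70 in Scr. The arrays of shZeb1_D were thus the lowest pair and the highest of the 9, a span of 7.66 inside 1 group, where Zeb1 itself spanned 9.26 to 9.56. The groups overlapped in all 3 comparisons, with differences of 0.11 ± 1.77 for shZeb1_C minus Scr, -1.75 ± 1.77 for shZeb1_D minus Scr and 1.86 ± 1.77 for shZeb1_C minus shZeb1_D (SE; limma adjusted p = 0.998, 0.706 and 0.729). Without the 4 arrays that stood together, shZeb1_D minus Scr was -3.58 and shZeb1_C minus shZeb1_D 4.74. That setting leaves shZeb1_D 13 alone in its group, so both differences rest on a lone array and only their sizes are given.

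Prf1, whose product granzymes need to enter a target cell, was below the dim limit on all 9 arrays. It stood at 5.21, 5.36 and 5.09 on the arrays labelled shZeb1_C, at 5.39, 5.15 and 5.40 in shZeb1_D and at 5.34, 5.25 and 5.38 in Scr, so the groups overlapped within a span of 0.31. The difference of shZeb1_C from Scr was -0.10 ± 0.14 (SE; 95% interval -0.42 to 0.22), the narrowest interval among the members, although a probe set this dim cannot show a low level of transcript. Perforin transcript was not detectable above the dim limit in any of the 3 groups.

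Srgn, the carrier of granzymes in the granule, was bright in every group. It stood at 13.51, 13.24 and 14.22 on the arrays labelled shZeb1_C, at 13.14, 14.18 and 14.12 in shZeb1_D and at 12.94, 14.32 and 13.10 in Scr. The groups overlapped, and the 4 highest values, 14.12 to 14.32, belonged to the 4 arrays that stood together in the residual component, against 12.94 to 13.51 on the other 5. The differences were 0.20 ± 0.43 for shZeb1_C minus Scr and 0.36 ± 0.43 for shZeb1_D minus Scr (SE; 95% intervals -0.76 to 1.17 and -0.61 to 1.33).

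Ctsc, the activator of granzymes, was bright on all arrays too. It stood at 12.77, 12.63 and 11.97 on the arrays labelled shZeb1_C, at 11.97, 11.59 and 11.41 in shZeb1_D and at 12.45, 11.47 and 12.51 in Scr. In each group the arrays of the residual set of 4 were the lowest, the opposite order to Srgn. The groups met or overlapped in every comparison, and shZeb1_C minus shZeb1_D was 0.80 ± 0.32 (SE; limma adjusted p = 0.368). Ctsw stayed near the dim limit, at 7.36, 7.09 and 7.64 on the arrays labelled shZeb1_C, at 6.95, 7.61 and 7.39 in shZeb1_D and at 7.31, 7.66 and 6.99 in Scr, above the limit on 5 of the 9. Its groups overlapped in all comparisons, and its differences lay between 0.00 and 0.05 in size (95% interval of shZeb1_C minus Scr -0.50 to 0.58).

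**Figure D2:**
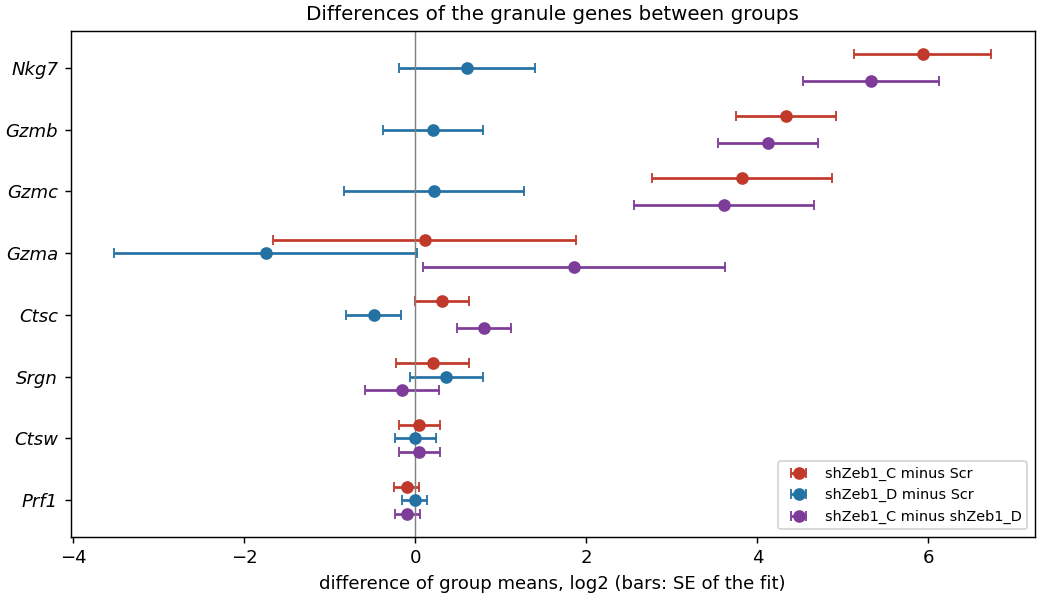
Differences between group means of the 8 members on the log2 scale, for shZeb1_C minus Scr, shZeb1_D minus Scr and shZeb1_C minus shZeb1_D, with bars for the SE of the fit. Nkg7, Gzmb and Gzmc lie at 3.61 to 5.93 in both comparisons of shZeb1_C and at 0.21 to 0.60 in shZeb1_D minus Scr; the bar of Gzma is the widest, with an SE of 1.77.

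Over all probe sets, limma called 0.945% in shZeb1_C minus Scr (0.659% higher and 0.286% lower), 0.843% in shZeb1_D minus Scr (0.399% higher and 0.445% lower) and 0.848% in shZeb1_C minus shZeb1_D (0.542% higher and 0.307% lower) at an adjusted p under 0.05. Of the 8 members 2 were called in the first comparison (Gzmb and Nkg7, both higher), 0 in the second and 2 in the third (the same pair, both higher), counts that are given beside the background only, because the list was made with these comparisons in view. At an unadjusted p under 0.05 limma gave 3, 0 and 4 members. The share of all probe sets at that unadjusted threshold is not given here. The unadjusted counts of the members and of every list therefore have no background beside them and are not read as a result. The median difference of the 8 was 0.26, 0.10 and 1.33, against 0.00, 0.04 and -0.04 over all probe sets. In shZeb1_C minus Scr the groups did not overlap for 3 of the 8 members, all higher, against 14.2% of all probe sets (7.5% higher and 6.74% lower). In shZeb1_C minus shZeb1_D the same 3 members did not overlap, against 15.2% (6.26% higher and 8.99% lower), and in shZeb1_D minus Scr 0 of 8, against 17% (10.3% higher and 6.65% lower). The smallest two-sided exact permutation p that 3 arrays against 3 allow is 0.10, and Gzmb, Gzmc and Nkg7 had it in both comparisons of shZeb1_C. The comparisons share groups of arrays, so their agreement is not given as a result.

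The calls of Gzmb and Nkg7 depended on single arrays, although the size of the difference kept its sign throughout. In shZeb1_C minus Scr both were lost without Scr 8 (limma adjusted p = 0.0512 for Gzmb and 0.0503 for Nkg7) and without Scr 9 (0.0584 and 0.0577), with differences of 3.88 to 5.14 for Gzmb and 4.87 to 6.64 for Nkg7 when each of the 9 arrays was left out in turn. In shZeb1_C minus shZeb1_D the call of Gzmb was lost without shZeb1_C 10 (limma adjusted p = 0.0744) or shZeb1_D 15 (0.0899). That of Nkg7 was lost without shZeb1_D 13 (limma adjusted p = 0.0528) or shZeb1_D 15 (0.102). Without shZeb1_C 11 Nkg7 stood at the threshold (limma adjusted p = 0.05 when rounded) and was still counted as called.

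The neighbours of the members on the chromosome shifted little in shZeb1_C minus Scr. The 10 named genes on each side of Gzmb had a median difference of 0.12 there, those of Gzmc 0.08, those of Nkg7 0.03 and those of Gzma 0.14. The largest medians were those of the neighbours of Ctsw, at -0.33 in shZeb1_D minus Scr and 0.30 in shZeb1_C minus shZeb1_D. Over the neighbours of all 8 members and the 3 comparisons, the called genes were Gzmb beside Gzmc and Itga2 near Gzma. Of the other granzymes and the chymase locus, 13 genes were measured, among them Gzmf, Gzmg and Gzmn of the same cluster, the T cell granzyme gene Gzmk and the mast cell protease genes. Limma called 0 of the 13 in each of the 3 comparisons, near the 0.945%, 0.843% and 0.848% called over all probe sets. At an unadjusted p under 0.05 it gave 1, 0 and 0. The 1 was Mcpt8, a basophil protease gene, at 7.09, 6.55 and 8.59 on the arrays labelled shZeb1_C and 7.28, 6.68 and 6.90 in shZeb1_D, against 6.49, 5.60 and 5.84 in Scr. None of the 13 was above the dim limit on all arrays, and granzymes of this cluster share sequence, so a probe set may take signal from a close copy.

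Beyond the members, 98 genes of granule biology were measured in 6 lists. In shZeb1_C minus Scr 5 rose and 0 fell, against 0.659% and 0.286% of all probe sets. In shZeb1_D minus Scr 0 rose and 3 fell, against 0.399% and 0.445%. In shZeb1_C minus shZeb1_D 1 was higher and 0 lower, against 0.542% and 0.307%. The counts of 0 are near these shares, and the directions are not read as a contrast between the hairpins. At an unadjusted p under 0.05 limma gave 25, 17 and 20, counts without a share of all probe sets beside them. The median over the 98 was 0.10, 0.07 and 0.11 in these comparisons. Among inhibitors of granzymes and cathepsins, 2 of 10 rose in shZeb1_C, against 0.659% of all probe sets. Cst7, which encodes cystatin F, an inhibitor of cathepsin C in granules, stood at 12.66, 12.91 and 14.21 on the arrays labelled shZeb1_C and 10.69, 12.39 and 12.04 in shZeb1_D, against 10.06, 10.86 and 9.67 in Scr. Every shZeb1_C array was above every array of the other groups, and the difference from Scr was 3.06 ± 0.53 (SE; limma adjusted p = 0.0359; up to 0.166 with single arrays left out). In shZeb1_D it was 1.51 ± 0.53 (limma adjusted p = 0.262), where the groups overlapped, and shZeb1_C minus shZeb1_D was 1.55 ± 0.53 (limma adjusted p = 0.294).

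Serpinb6b, a serpin of the clade that inhibits granule proteases in mouse, averaged 10.57 ± 0.41 on the arrays labelled shZeb1_C and 9.98 ± 0.63 in shZeb1_D, against 8.79 ± 0.21 in Scr (SD, n = 3). It was higher by 1.77 ± 0.32 in shZeb1_C (SE; limma adjusted p = 0.0432; up to 0.183 with single arrays left out) and by 1.19 ± 0.32 in shZeb1_D, which did not pass (limma adjusted p = 0.156). Serpinb9, the mouse inhibitor of granzyme B, was dim, at 6.72, 6.42 and 6.77 on the arrays labelled shZeb1_C, 6.51, 6.16 and 5.83 in shZeb1_D and 5.71, 5.87 and 5.59 in Scr, with a difference of 0.91 ± 0.20 in shZeb1_C that did not pass (limma adjusted p = 0.0827).

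Of 28 genes of granule biogenesis and exocytosis 1 rose and 0 fell in shZeb1_C, against 0.659% and 0.286% of all probe sets. In shZeb1_D 0 rose and 1 fell, against 0.399% and 0.445%. Sytl3, a synaptotagmin-like partner of Rab27 proteins, stood at 10.01, 10.54 and 11.48 on the arrays labelled shZeb1_C, 7.46, 8.31 and 7.27 in shZeb1_D and 6.97, 7.79 and 7.05 in Scr. Its shZeb1_C arrays lay above all others, by 3.41 ± 0.41 from Scr (SE; limma adjusted p = 0.00798; 0.0532 without Scr 9). From shZeb1_D the difference was 2.997 ± 0.41 (limma adjusted p = 0.0139). That call was lost without shZeb1_D 15, with a limma adjusted p of up to 0.0815 when single arrays were left out. Rab27a, the GTPase that docks granules, had 0.86 ± 0.32 in shZeb1_C and 0.00 ± 0.32 in shZeb1_D, and Unc13d, which primes them for fusion, had -0.41 ± 0.16 and -0.40 ± 0.16; limma called neither gene, with adjusted p of 0.431 and 0.997 for Rab27a and of 0.435 and 0.304 for Unc13d. Dock8, an exchange factor for Cdc42 in T and NK cells, stood at 9.01, 7.94 and 9.50 on the arrays labelled shZeb1_C, 6.60, 7.87 and 6.95 in shZeb1_D and 9.75, 10.36 and 10.64 in Scr. It fell by 3.11 ± 0.45 in shZeb1_D (SE; limma adjusted p = 0.0210; up to 0.125 with single arrays left out), and in shZeb1_C its difference was -1.43 ± 0.45 (limma adjusted p = 0.272).

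Of 11 genes listed as death ligands and other cytotoxic effectors 2 rose and 0 fell in shZeb1_C, against 0.659% and 0.286% of all probe sets. In shZeb1_D 0 rose and 1 fell, against 0.399% and 0.445%. Ctla2a of that list encodes a protease inhibitor rather than an effector. Tnfsf10, the death ligand TRAIL, averaged 8.95 ± 0.51 on the arrays labelled shZeb1_C and 8.34 ± 0.30 in shZeb1_D, against 7.36 ± 0.31 in Scr (SD, n = 3). Its differences from Scr were 1.58 ± 0.28 and 0.98 ± 0.28 (SE; limma adjusted p = 0.0385 and 0.181), and the call was lost without any of 8 of the 9 arrays (adjusted p up to 0.175). Ctla2a, an inhibitor of cathepsin L type proteases found in activated T cells, stood at 10.81, 9.59 and 12.73 on the arrays labelled shZeb1_C, 6.65, 10.08 and 8.10 in shZeb1_D and 6.32, 5.69 and 6.42 in Scr. All 3 Scr arrays were below the dim limit, so the signal was at least 15-fold higher in shZeb1_C than in Scr (8.38-fold without shZeb1_C 12). The fitted difference was 4.90 ± 0.91 (SE; limma adjusted p = 0.0471; up to 0.165 with single arrays left out), and shZeb1_D 14 lay inside the range of shZeb1_C. Tnf fell by 2.10 ± 0.35 in shZeb1_D (limma adjusted p = 0.0326; up to 0.0931 with single arrays left out), with 5.53, 6.0 and 6.46 there and 7.87, 8.82 and 7.59 in Scr. All 3 shZeb1_D arrays were dim, and against the dim limit the signal was at least 1.5-fold lower than in Scr (1.17 without Scr 8).

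Of 12 lysosomal cathepsin genes 0 were called in shZeb1_C minus Scr, against 0.945% of all probe sets. At an unadjusted p under 0.05 limma gave 5 there. Ctsz fell in shZeb1_D, where 0.445% of all probe sets were called lower. Ctsz, a carboxypeptidase, stood at 11.49, 11.93 and 11.50 in shZeb1_D and at 12.89, 12.67 and 13.51 in Scr, a difference of -1.38 ± 0.25 (SE; limma adjusted p = 0.0428; up to 0.186 with single arrays left out). On the arrays labelled shZeb1_C Ctsz was low too, at 11.90, 11.43 and 11.87. Its difference from Scr there was -1.29 ± 0.25, which narrowly missed the threshold (limma adjusted p = 0.0513), and shZeb1_C minus shZeb1_D was 0.09 ± 0.25. Its 20 neighbours on chromosome 2 had a median difference of -0.57 in shZeb1_D and -0.85 in shZeb1_C, so they were low together with it, and the part of that shift in the value for Ctsz was not tested. Ctsl was below the dim limit except on shZeb1_C 12, where it stood at 8.13.

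Of 24 regulators of the cytotoxic programme limma called 0 in each comparison, near the 0.945%, 0.843% and 0.848% called over all probe sets. At an unadjusted p under 0.05 limma gave 4, 0 and 4, counts without such a share that are not read as a result. Among the 4 in shZeb1_C minus Scr were Id2, with 2.33 ± 0.74 and overlapping groups, and Runx1, with 1.61 ± 0.52 (SE, limma adjusted p = 0.291 and 0.299). Runx3, a transcription factor of killer lymphocytes, was bright at 13.82 to 14.67 over the 9 arrays, with a difference of -0.05 ± 0.23 in shZeb1_C and -0.21 ± 0.23 in shZeb1_D from Scr (SE; limma adjusted p = 0.998 and 0.734). Tbx21 and Eomes, the T-box factors of the same cells, stood at 4.63 to 5.65 and 4.64 to 5.27, below the dim limit on all arrays, as did Prdm1 (5.28 to 6.39) and the interleukin-2 receptor chain gene Il2rb (4.71 to 5.22).

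**Figure D3:**
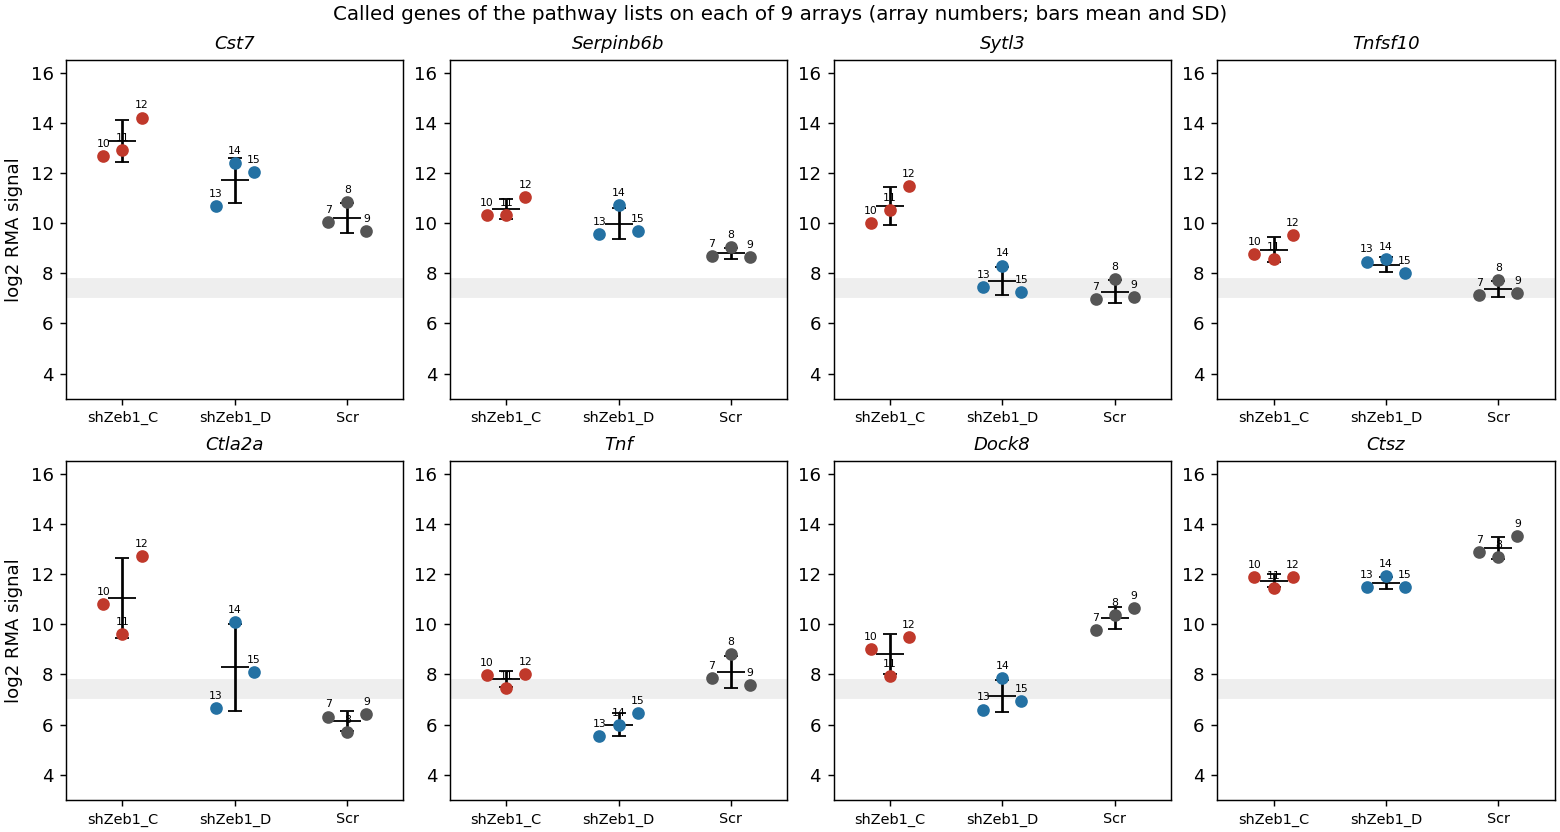
Log2 RMA signal of the 8 called genes of the pathway lists on each array. Columns are shZeb1_C, shZeb1_D and Scr, points are arrays with their numbers, bars are mean and SD (n = 3), and the grey band spans the dim limits of 7.06 to 7.78. Cst7, Serpinb6b, Sytl3, Tnfsf10 and Ctla2a were called higher in shZeb1_C than in Scr, and Tnf, Dock8 and Ctsz lower in shZeb1_D than in Scr.

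Some markers of NK cells were also higher on the arrays labelled shZeb1_C, while Fcgr3 was lower. Of 10 measured, 2 rose and 1 fell in shZeb1_C minus Scr, against 0.659% and 0.286% of all probe sets. Klrc1, which encodes the receptor chain NKG2A, stood at 8.25, 7.00 and 9.20 on the arrays labelled shZeb1_C, 5.43, 5.20 and 5.27 in shZeb1_D and 5.32, 4.97 and 5.09 in Scr. Klrk1, the NKG2D gene, stood at 8.75, 8.72 and 9.91 on the arrays labelled shZeb1_C, 7.60, 7.90 and 8.43 in shZeb1_D and 7.60, 6.93 and 6.92 in Scr. The shZeb1_C arrays were the highest 3 for both genes, by 3.02 and 1.98 from Scr (limma adjusted p = 0.0157 for Klrc1 and 0.0432 for Klrk1). With single arrays left out the call of Klrc1 was lost in 4 of 9 fits (up to 0.0787) and that of Klrk1 in 8 of 9 (up to 0.187). Klrc1 was dim on all arrays of shZeb1_D and Scr and on shZeb1_C 11, and against the dim limit it was at least 2.02-fold higher in shZeb1_C than in Scr (1.41-fold without shZeb1_C 12). Fcgr3, an Fc receptor gene of NK and myeloid cells, fell, with 7.80, 7.87 and 7.66 on the arrays labelled shZeb1_C, 10.93, 10.99 and 11.37 in shZeb1_D and 12.19, 11.75 and 11.68 in Scr. The difference of Fcgr3 in shZeb1_C minus Scr was -4.10 (limma adjusted p = 5.6e-05). That call was kept with any single array left out (limma adjusted p up to 0.000997). The log2 of the summed signal of the 10 markers was 13.19 to 15.06 in shZeb1_C, 12.93 to 13.16 in shZeb1_D and 12.68 to 13.85 in Scr. Sums of markers are of linear signals, so the brightest genes weigh most. Klrd1, among the brightest here, stood at 13.55, 12.57 and 14.55 in shZeb1_C, 12.37, 12.32 and 11.73 in shZeb1_D and 12.97, 10.38 and 10.83 in Scr. Its groups overlapped in shZeb1_C minus Scr (limma adjusted p = 0.272). Ncr1, a defining gene of NK cells, stood at 4.59 to 4.83, below the dim limit on all 9 arrays. The summed T cell markers ran from 16.80 to 16.93 in shZeb1_C, from 16.25 to 16.40 in shZeb1_D and from 16.37 to 16.69 in Scr. The part of these markers in the values of the granule genes was not tested.

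The genes nearest in pattern to a member were sought by the root mean square difference of log2 values, each centred on its own mean of the 9 arrays, for the 4 members that spanned at least 2. Nearest to Gzmb were Lcp2, the adaptor SLP-76 (0.59), Tnfrsf9, the costimulatory receptor 4-1BB (0.61), and Lpxn (0.62), against a span of 5.56 for Gzmb. Lcp2 stood at 12.29, 11.44 and 12.22 on the arrays labelled shZeb1_C, 7.66, 7.84 and 7.27 in shZeb1_D and 8.71, 8.03 and 7.87 in Scr. The nearest genes were picked for likeness over these same 9 arrays. Their likeness to a member was thus fixed by the choice and is a description only. Nearest to Nkg7 were Cd48, a ligand on leukocytes (0.52), Gcnt2 (0.57) and Arnt2 (0.83), and nearest to Gzmc were S100a4 (0.53), Bcl2a1a (0.64) and Bcl2a1b (0.65), the last 2 of which are close copies of each other and may share signal. S100a4 stood at 10.56, 9.34 and 14.80 on the arrays labelled shZeb1_C, with 12 far above the others as for Gzmc.

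The gene nearest to Gzma was Trat1, an adaptor of the T cell receptor complex, at a root mean square difference of 1.08 against a span of 7.66. Trat1 stood at 9.47, 9.93 and 10.75 on the arrays labelled shZeb1_C, 5.71, 11.01 and 5.59 in shZeb1_D and 10.01, 10.75 and 10.49 in Scr. As for Gzma, shZeb1_D 13 and 15 were the lowest of the 9 arrays and shZeb1_D 14 the highest, a likeness for which Trat1 was picked. Bex6 (1.56) and Gimap3 (1.73) came next and followed it less closely.

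**Figure D4:**
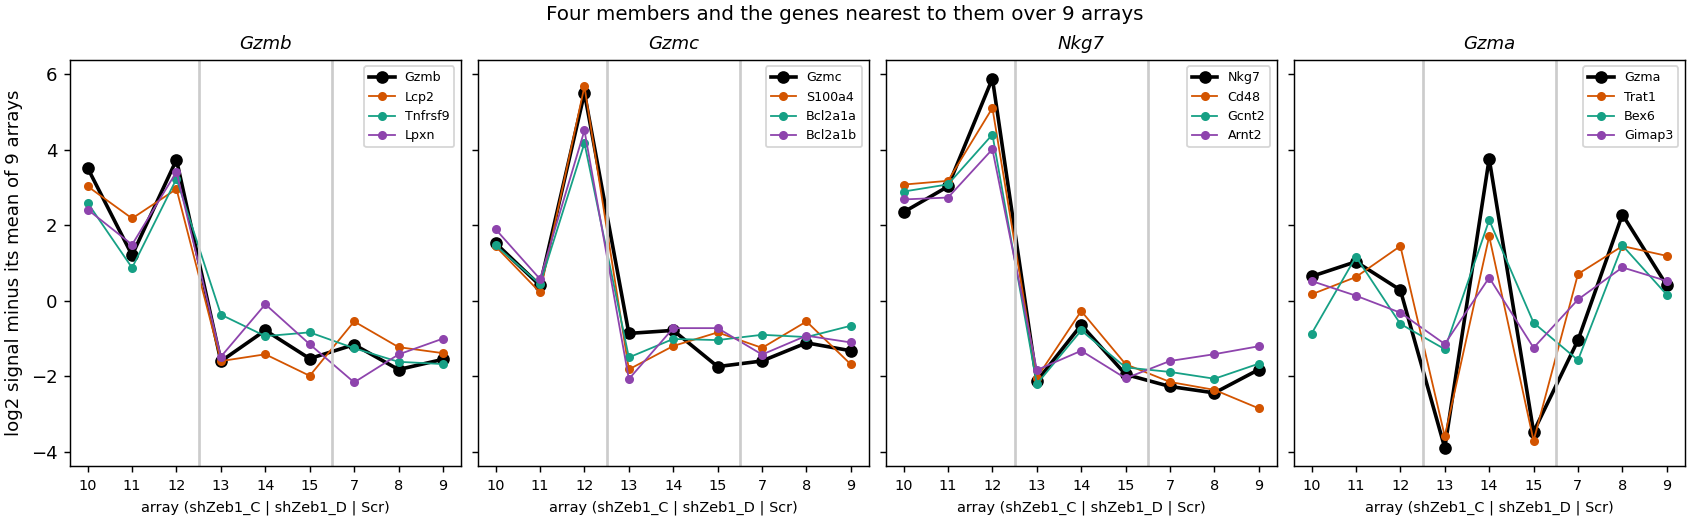
Log2 signal of Gzmb, Gzmc, Nkg7 and Gzma on 9 arrays, each minus its own mean, with the 3 genes nearest to each by root mean square difference. The nearest genes were picked for likeness over these arrays, so the shared pattern follows from the choice. Arrays run from shZeb1_C through shZeb1_D to Scr; Gzmb, Gzmc and Nkg7 with their nearest genes are high on arrays 10, 11 and 12, and Gzma and Trat1 are low on arrays 13 and 15 and high on 14.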

How the data were processed

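Per the labels, total RNA of 9 samples was labelled with biotin and hybridised to 1-colour arrays, 3 in each of shZeb1_C, shZeb1_D and Scr, and per the submitters' processing notes the signals came from RMA and the Transcriptome Analysis Console. The score the authors deposited for each probe set and array is a linear signal without its decimal point; each of 199854 values was returned to log2 at the only place of the point that makes it a multiple of 0.01 (tolerance 1e-06 steps). The genome build and annotation behind the probe sets are not given in the sources used here.

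The platform annotation gave 1 symbol for 19572 of 22206 probe sets, several for 0 and none for 2634, which were not tested. Limma 3.58.1 in R 4.3.3 fitted a mean per group over all 9 arrays with empirical Bayes moderation, and p-values were adjusted by Benjamini-Hochberg over all named probe sets. The fit was tested on simulated data with known changes. Upstream windows came from RefSeq (GRCm38.p6), with a window for 7 of 8 members.

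The members, the gene lists, the tests and the rule for named genes were chosen with earlier results of these data known. The rule took the 8 members, Zeb1, up to 4 called genes per list, a fixed set of genes (Runx3, Tbx21, Eomes, Prdm1, Il2rb, Cst7, Serpinb9, Ctsl, Rab27a, Unc13d, Ncr1, Cd3e, Cd3g) and the 3 nearest genes of each member that spanned at least 2. Mcpt8, Cpa3, the macrophage genes, the dim T cell genes, Id2, Runx1, Klrd1, Lamp1, Xcl1 and Cd63 fall outside it and were chosen after their values were seen. The bounds with single arrays left out were chosen in the same way.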

Additional observations from a re-analysis of the deposited data

Results flagged for a closer look

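Each of the following differed between the 2 hairpins by the direct limma comparison shZeb1_C minus shZeb1_D, which is the test of the difference itself (adjusted p under 0.05 over all probe sets). Gzmb was higher by 4.13 and Nkg7 by 5.33 on the log2 scale of the fit. The shZeb1_D arrays were dim for both, so the bounds are at least 7.41-fold for Gzmb and 8.07-fold for Nkg7. Of the list genes, Sytl3 was higher by 2.997, Klrc1 by 2.85 and Itga2, an integrin chain and NK cell marker, by 1.79. Fcgr3 had a difference of -3.32 and Prss57, a serine protease gene of neutrophil granules, one of -2.08, so both were lower in shZeb1_C. Klrc1 was dim in shZeb1_D too, with a bound of at least 1.56-fold (1.09 without shZeb1_C 12). With single arrays left out, the call of Itga2 was lost in 7 of 9 fits (limma adjusted p up to 0.113), that of Klrc1 in 5 (up to 0.106), that of Prss57 in 3 (up to 0.084), and that of Fcgr3 in 0. Without the 4 arrays that stood together, which leaves 1 array in shZeb1_D, Itga2 was at 0.97 and Klrc1 at 2.20. The calls of Itga2 and Klrc1 were also lost with only the 6 arrays compared. Itga2 lies among the 20 neighbours of Gzma on chromosome 13 and was the only one of them called in any comparison. Groups of 3 arrays were too small to look for single arrays far from the rest.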

How the results depend on the processing

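The count of members called was 0 to 3 in shZeb1_C minus Scr, 0 in every case in shZeb1_D minus Scr and 0 to 2 in shZeb1_C minus shZeb1_D when each array was left out in turn. The counts over all probe sets then ran from 43 to 214, from 14 to 213 and from 49 to 162, and those of the pathway genes from 0 to 6, from 0 to 5 and from 0 to 2. For the same 3 comparisons, array weights gave 572, 1076 and 833 probe sets and 13, 12 and 6 pathway genes. The sign of the residual component as a covariate gave 875, 772 and 700 probe sets and 19, 9 and 10 pathway genes. Fitting only the 6 arrays compared gave 68 probe sets in shZeb1_D minus Scr, and 81 probe sets and 0 members in shZeb1_C minus shZeb1_D. With only probe sets above the median mean of 7.10 kept, which drops Nkg7, Gzmc and Prf1, 1 member, Gzmb, was called in both comparisons of shZeb1_C, and 5 pathway genes in shZeb1_D minus Scr and 2 in shZeb1_C minus shZeb1_D. Quantile normalizing again gave 2 pathway genes in shZeb1_C minus Scr, and that setting, subtracting array medians and the trend and robust prior each gave 2 in shZeb1_C minus shZeb1_D. At an adjusted p under 0.01, 0 members were called in any comparison; the adjusted p of the called members was 0.0109 to 0.0189.

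Without Scr 8, shZeb1_C 12, shZeb1_D 14 and shZeb1_D 15, an alternative chosen after seeing the data, limma called 424 and 273 probe sets against Scr, 11, 7 and 5 pathway genes, and 1 member, Gzma, in shZeb1_D minus Scr; in shZeb1_C minus shZeb1_D it called Gzma (4.74, adjusted p = 0.0116) and Nkg7. Gzmc was then called in shZeb1_C minus Scr with a difference of 2.43 (adjusted p = 0.0169), and also with the covariate (0.0319), while Gzmb in shZeb1_C minus shZeb1_D was not (adjusted p = 0.0684). The cause was not tested. No called gene named here changed sign. Including unnamed probe sets and averaging the probe sets of a gene moved no count by more than 1.5 times. No paired analysis was possible because the array numbers 7 to 15 are not shared between groups.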

Other observations

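Cd63, a tetraspanin of lysosomes and granules, stood at 7.50 and 7.48 on shZeb1_C 10 and 11 and at 13.26 on shZeb1_C 12, with 7.85, 8.01 and 7.85 in shZeb1_D and 7.51, 7.84 and 7.48 in Scr. It was chosen after its values were seen. The same array held the highest of the 9 values of Gzmb, Gzmc, Nkg7, Cst7, Sytl3, Tnfsf10 and Ctla2a.

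Xcl1, the lymphotactin gene of activated T and NK cells, stood at 10.97, 9.89 and 13.57 on the arrays labelled shZeb1_C, 7.65, 8.95 and 8.30 in shZeb1_D and 8.03, 7.33 and 7.27 in Scr. Its groups in shZeb1_C and Scr did not overlap, but the difference of 3.93 ± 0.79 (SE) missed the threshold (limma adjusted p = 0.0610). Lamp1, a lysosome membrane protein gene shown on the surface when granules are released, stood at 12.83, 13.25 and 13.73 on the arrays labelled shZeb1_C, 11.97, 11.93 and 10.96 in shZeb1_D and 12.96, 12.60 and 13.30 in Scr; shZeb1_D minus Scr was -1.33 ± 0.33 (limma adjusted p = 0.124). Both genes were chosen after their values were seen.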
